A study of Homo sapiens with 12 samples.

Results

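The comparison described here set 2 lines of HEK293T cells that carry a gain-of-function (GOF) mutant of EZH2 against 2 lines that do not. HEK293T is a human embryonic kidney cell line that holds the large T antigen of SV40. All 4 lines were made by lentivirus with selection on blasticidin, and they carry WT EZH2, the Y641F or A677G mutant, or the loss-of-function (LOF) double mutant H689A/F667I on top of the EZH2 of the parent cells. Y641F and A677G formed the GOF side with 6 samples, and WT and LOF formed the other side with 6 samples, so that all 12 RNA-Seq samples of the series were used with 3 replicates per line. The contrast was the mean of the Y641F and A677G coefficients minus the mean of the WT and LOF coefficients, with 1 coefficient per line. Each line is 1 transduced population, so a mutation and the line that carries it cannot be told apart within a side, and p-values measure the spread between samples of these lines.

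EZH2 is the catalytic subunit of polycomb repressive complex 2 (PRC2), which methylates lysine 27 of histone H3. The trimethylated form, H3K27me3, is found at promoters of silent and weakly transcribed developmental genes, most of them rich in CG dinucleotides. The Y641F and A677G substitutions lie in the catalytic SET domain, and the study describes GOF mutants as more active on the dimethylated form. It relays a proposal that Y641F accommodates that form better than A677G does. The LOF double mutant was made to lose methyltransferase activity. The WT and LOF lines thus share a transduced EZH2 without the GOF substitutions, and the comparison asks which transcripts separate lines with a GOF enzyme from lines with either kind of EZH2 that is not GOF.

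Each sample had a total of 32137700 to 44562413 deposited counts. The table held 14438 genes, and 175 of them were listed at 0 in all 3 replicates of a line and were left out. Of these, 134 were at 0 in A677G and 100 in LOF, with 59 at 0 in both lines, and none was at 0 in all replicates of WT or Y641F. In principal components of log2 CPM (CPM are counts scaled to the library size and by the trimmed mean of M-values), the first component held 33.7% of the variance. Replicate 1 of Y641F stood apart from the other 5 GOF samples on it, with a score of 5.60. The markers fixed for the HEK293T line were all in the table (10 of 10), and of 18 blood cell genes 4 were in it. PTPRC, SPI1 and the hemoglobin genes HBA1, HBA2 and HBB were not. The summed CPM of the blood cell genes was 37.5 to 47.3 in the GOF samples and 35.1 to 49.7 in the others. For the fibroblast genes (7 of 12 in the table) it was 16.6 to 28.3 and 13.5 to 19.9, where COL3A1 was the 1 member called, and for the epithelial genes (4 of 14) 4.27 to 8.02 and 3.97 to 5.89. In bulk RNA, fewer cells that express a gene and less RNA per cell cannot be told apart.

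Stretches of 6 promoters are shown as examples from genes named below, 4 lower and 2 higher in the GOF lines. Each is the 250 bases before the annotated start of the gene in RefSeq on GRCh38.p14, 5′ to 3′ along the strand of the gene, with every CG dinucleotide in capitals. The first 4 belong to the lower genes and the last 2 to the higher ones.
ADCYAP1R1 (chr7:31052058-31052307, + strand): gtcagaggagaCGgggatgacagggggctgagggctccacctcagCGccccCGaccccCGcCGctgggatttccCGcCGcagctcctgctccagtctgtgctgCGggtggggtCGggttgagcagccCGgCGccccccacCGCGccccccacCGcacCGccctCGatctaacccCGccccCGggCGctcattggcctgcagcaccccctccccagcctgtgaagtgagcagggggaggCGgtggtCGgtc
SYT14 (chr1:209937967-209938216, + strand): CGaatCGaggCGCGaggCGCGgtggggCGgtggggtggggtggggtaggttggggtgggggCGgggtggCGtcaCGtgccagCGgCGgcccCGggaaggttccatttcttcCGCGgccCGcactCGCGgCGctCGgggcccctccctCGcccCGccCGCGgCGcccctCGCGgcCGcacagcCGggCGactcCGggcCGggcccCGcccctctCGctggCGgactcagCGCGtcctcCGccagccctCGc
COL4A1 (chr13:110307158-110307407, - strand): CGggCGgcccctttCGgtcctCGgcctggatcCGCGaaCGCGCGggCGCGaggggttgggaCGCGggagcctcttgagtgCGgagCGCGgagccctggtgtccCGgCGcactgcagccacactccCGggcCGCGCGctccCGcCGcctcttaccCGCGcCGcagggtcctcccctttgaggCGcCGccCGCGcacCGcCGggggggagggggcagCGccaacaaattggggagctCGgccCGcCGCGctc
CNTNAP2 (chr7:146116551-146116800, + strand): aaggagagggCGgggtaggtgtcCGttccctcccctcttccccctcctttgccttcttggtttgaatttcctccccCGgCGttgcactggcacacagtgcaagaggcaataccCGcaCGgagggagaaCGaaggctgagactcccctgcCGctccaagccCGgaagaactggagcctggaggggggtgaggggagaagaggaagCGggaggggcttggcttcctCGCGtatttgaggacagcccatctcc
ZNF737 (chr19:20565782-20566031, - strand): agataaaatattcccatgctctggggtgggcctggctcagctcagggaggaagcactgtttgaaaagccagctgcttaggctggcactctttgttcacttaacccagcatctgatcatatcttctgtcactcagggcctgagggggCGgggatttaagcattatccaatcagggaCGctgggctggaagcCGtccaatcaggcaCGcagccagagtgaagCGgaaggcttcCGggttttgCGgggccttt
ZNF681 (chr19:23758892-23759141, - strand): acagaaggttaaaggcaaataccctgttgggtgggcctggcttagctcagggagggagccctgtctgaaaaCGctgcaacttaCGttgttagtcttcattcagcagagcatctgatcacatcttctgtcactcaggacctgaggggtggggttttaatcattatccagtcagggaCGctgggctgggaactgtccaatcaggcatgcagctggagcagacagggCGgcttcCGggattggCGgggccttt
IRF8, a gene with one of the 12 largest decreases, is not printed because its RefSeq start in the table used is not that of the main GENCODE transcript, and its stretch held 2 CG. The printed SYT14 and CNTNAP2 stretches also lie inside the GENCODE spans of their genes, which start at 209900923 and 146116002. These examples were chosen after values were seen and stand for no group. CG was found 21 times in the ADCYAP1R1 stretch, 39 times in that of SYT14 and 38 times in that of COL4A1. CNTNAP2 had 12, ZNF737 had 7 and ZNF681 had 6. Among 35116 RefSeq promoters the median was 11, and 93.9% held at least 1. CG is its own reverse complement, so a count covers both strands. Over all genes, the 1000 bases around the start site held a median of 86.5 CG in genes that were lower in the GOF lines, 87.0 in genes that were higher and 76.0 in genes not called. Genes lower by 2-fold or more had a median of 73.5.

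In the GOF lines, 1477 of 14263 genes were lower and 785 were higher at an adjusted p under 0.05 (edgeR quasi-likelihood test), which is 10.4% and 5.50% of the genes tested. The median log2 fold change over all genes was 0.0055, and 65.3% of the called genes were lower. With upper-quartile scaling the counts were 1736 lower and 535 higher, so that 76.4% of the called genes were lower. Large changes were nearly all decreases. A 2-fold decrease was reached by 186 called genes (1.30%) and a 2-fold increase by 2 (0.0140%). The 2 genes are given here after their values were seen. GPR50, an orphan receptor on the X chromosome, had 2.12, 1.497 and 1.73 CPM in Y641F and 1.68, 2.09 and 2.88 CPM in A677G, against 0.893, 0.958 and 0.664 in WT and 0.216, 0.407 and 0.621 in LOF (log2 fold change 1.75, SE 0.218, adjusted p = 1.17e-07). ZNF682, a zinc finger gene on chromosome 19, had GOF values of 0.893 to 1.301 CPM and other values of 0.271 to 0.906 CPM, which overlap (log2 fold change 1.12, SE 0.227, adjusted p = 3.74e-04). Both were low in every sample. The 186 genes with a 2-fold decrease were mostly low as well, with a median mean log2 CPM of 0.0875 against 4.62 over all genes.

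**Figure D1:**
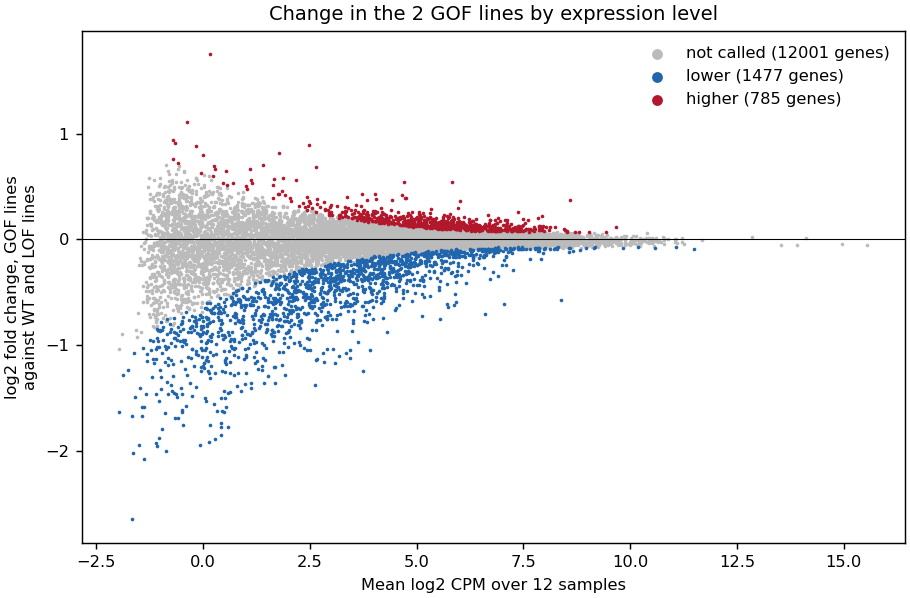
Each point is 1 of 14263 genes, with mean log2 CPM over the 12 samples on the horizontal axis and the log2 fold change of the GOF lines against the WT and LOF lines on the vertical axis. The genes called lower have a median level of 2.93 and those called higher of 5.53, and 186 of the former but 2 of the latter changed by 2-fold or more.

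All 6 GOF samples were below all 6 other samples for 771 genes (5.41% of those tested) and above them for 249 (1.75%). Of the genes called lower, 750 of 1477 had no overlap between the sides, and of those called higher, 217 of 785. As a description of the called genes, both GOF lines lay on the called side of the mean of WT and LOF for 2259 of 2262. The lines within a side were tested in the same fit. Between Y641F and A677G 12 genes (0.0841%) differed, and between LOF and WT 43 genes (0.301%). These counts rested on single libraries, with 57 between the GOF lines without replicate 2 of Y641F and 21 without its replicate 3. Between LOF and WT they were 11 without replicate 1 of LOF, 12 without replicate 1 of WT and 65 without replicate 1 of Y641F. At an unadjusted p under 0.05, 458 genes were lower and 527 higher in Y641F than in A677G, and 585 were lower and 599 higher in LOF than in WT. A joint test of both within-side differences called 53 genes (0.372%, and 23 to 108 genes with 1 replicate left out), of which 19 were also among the 2262. When only the 4 line means were compared with limma, so that the line and not the sample was the replicate, 1242 genes were lower and 472 higher.

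EZH2 itself (ENSG00000106462.12, chromosome 7, 148807257 to 148884321) was measured first, and its counts do not separate the transduced from the endogenous transcript. EZH2 had 157, 163 and 154 CPM in WT, 208, 210.1 and 206 CPM in LOF, 228, 209 and 217 CPM in Y641F and 174, 165 and 182 CPM in A677G. The order was WT, A677G, LOF and Y641F, so each side had 1 line with more EZH2 and 1 with less. The values of LOF and Y641F overlapped, and those of WT lay just below those of A677G. LOF exceeded WT (log2 difference 0.40, adjusted p = 1.15e-07, edgeR) and Y641F exceeded A677G (0.33, adjusted p = 9.34e-06). Between the sides the log2 fold change was 0.10 (SE 0.0281, adjusted p = 0.0108, edgeR), and it did not pass when the sides were compared without a coefficient per line (adjusted p = 0.412). It was -0.0982 without the WT line and -0.0687 without the Y641F line, neither past the threshold.

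Among the other PRC2 and PRC1 genes, log2 fold changes ran from -0.43 to 0.12. Of 13 PRC2 subunits, with EZH2 itself counted, 2 were lower and 2 higher, and EZH2 was 1 of the higher. Each share was 15.4%, against 10.4% lower and 5.50% higher over all genes tested. C17orf96, which encodes the PRC2 accessory protein EPOP, had 25.3 to 30.9 CPM in the GOF samples and 35.3 to 38.98 CPM in the others (log2 fold change -0.43, SE 0.0447, adjusted p = 2.11e-09). RBBP7, a histone-binding core subunit, had a log2 fold change of -0.08, and AEBP2, an accessory subunit, of 0.12. Of 21 PRC1 subunits 2 were lower (9.52%) and 1 higher (4.76%), shares near those of all genes. PCGF5 was at -0.32, CBX6 at -0.09 and PCGF3 at 0.09. Among 16 genes for enzymes and cofactors that counter PRC2 none was lower and 3 were higher, and none was called without the A677G line or without the LOF line. The 3 were the H3K36 methyltransferase genes WHSC1 (0.10, SE 0.0248) and WHSC1L1 (0.10, SE 0.0291) and ASXL2 (0.13, SE 0.0397), a partner of a histone H2A deubiquitinase. Of 21 SWI/SNF subunits, which form chromatin remodelling complexes, SS18 was the 1 called (0.08).

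Genes were then ranked by size of change where the mean log2 CPM was 1 or more and the sides did not overlap. The 12 with the largest decreases had log2 fold changes from -1.41 to -1.21. ADCYAP1R1 (ENSG00000078549.16, chromosome 7, 31052308 to 31111474), the receptor for the neuropeptide PACAP, had 8.23, 9.47 and 10.7 CPM in WT and 10.5, 8.48 and 11.9 CPM in LOF, against 3.35, 4.28 and 3.78 CPM in Y641F and 3.68, 3.34 and 4.33 CPM in A677G. Its highest GOF value lay well under the lowest of the other side (log2 fold change -1.38, SE 0.0981, adjusted p = 2.53e-13). SPON1 (ENSG00000262655.4, chromosome 11, 13962723 to 14268133), which encodes the secreted matrix protein F-spondin, had 21.1, 18.8 and 19.6 CPM in WT, 20.5, 21.6 and 22.5 in LOF, 10.7, 8.85 and 8.37 in Y641F and 8.01, 8.55 and 7.95 in A677G (log2 fold change -1.24, SE 0.0637, adjusted p = 3.24e-17). Among these 12 genes it had the smallest error, and replicate 1 of Y641F was the highest of its side. IRF8, a transcription factor of the myeloid and B cell lineages, had 4.76, 4.09 and 3.71 CPM in WT, 7.85, 5.07 and 5.399 CPM in LOF, 2.62, 2.42 and 1.96 CPM in Y641F and 1.32, 1.77 and 1.97 CPM in A677G (log2 fold change -1.35, SE 0.133, adjusted p = 8.65e-10). Of 18 blood cell marker genes 4 were in the table, none of them called, and their part in the value of IRF8 was not tested. STAC, an adaptor protein of calcium channels, had a log2 fold change of -1.41, CYP2J2, an epoxygenase of arachidonic acid, of -1.36, and SLC9A2, a sodium-proton exchanger, of -1.36. The others were TENM4 (-1.29), CHRDL1 (-1.28), ANO4 (-1.26), CCDC68 (-1.23), LRRN2 (-1.23) and SYT14 (-1.21).

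The 12 largest increases by the same rule were smaller, and 8 of them lay on chromosome 19. COL3A1 (ENSG00000168542.17, chromosome 2, 188974373 to 189012746), the chain of type III collagen, led with 11.6, 7.49 and 7.42 CPM in Y641F and 7.11, 6.41 and 6.39 CPM in A677G, against 3.49, 2.69 and 4.37 CPM in WT and 4.19, 4.99 and 5.43 CPM in LOF (log2 fold change 0.89, SE 0.114, adjusted p = 1.69e-07). The value of 11.6 CPM in replicate 1 of Y641F was the highest, and the other 5 GOF samples lay between 6.39 and 7.49. PCDH10 (ENSG00000138650.9, chromosome 4, 133149294 to 133208606), a protocadherin, had 47.7, 49.1 and 48.1 CPM in WT, 46.3, 43.8 and 46.7 in LOF, 70.7, 65.1 and 69.02 in Y641F and 68.9, 68.7 and 68.04 in A677G (log2 fold change 0.54, SE 0.0332, adjusted p = 3.60e-15). PCDH17, of the same family, had a log2 fold change of 0.54 and SKIDA1 of 0.43. The 8 genes on chromosome 19 were ZNF737 (0.82), ZNF429 (0.71), ZNF681 (0.69), ZNF808 (0.66), LINC00665 (0.58), ZNF85 (0.56), ZNF793 (0.46) and ZNF91 (0.43).

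**Figure D2:**
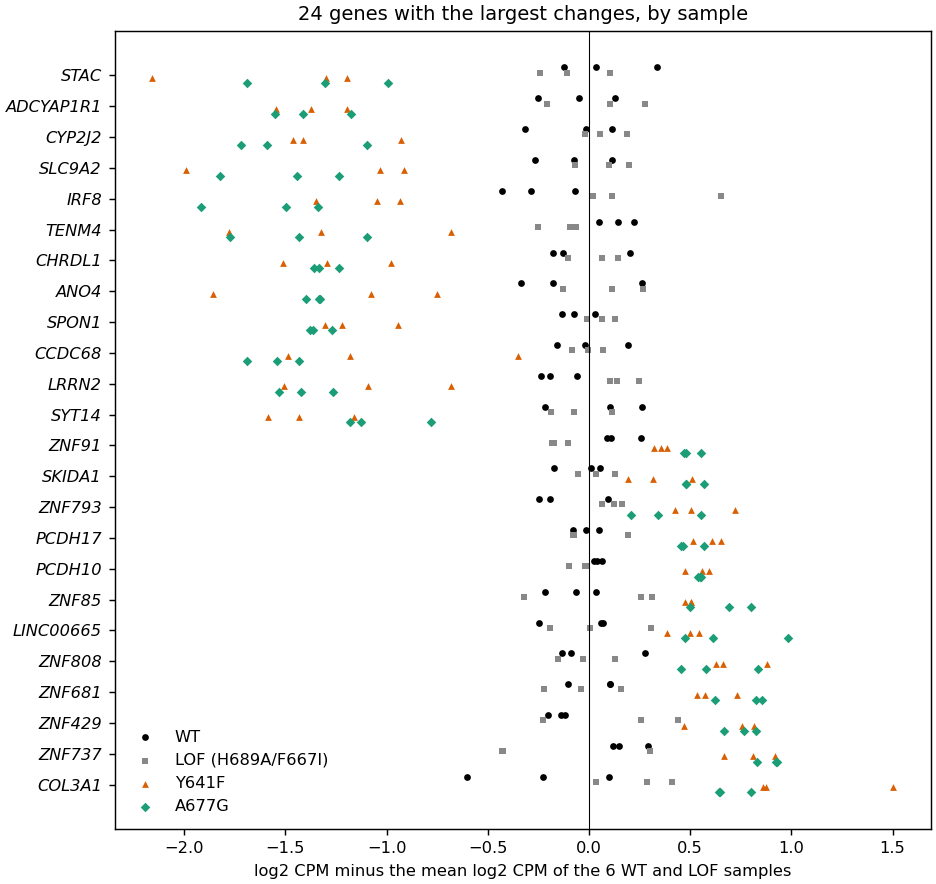
The 24 genes with the largest decreases and increases are shown in rows, and each point is 1 sample, placed by its log2 CPM minus the mean log2 CPM of the 6 WT and LOF samples. Circles are WT, squares LOF, triangles Y641F and diamonds A677G. The GOF points of STAC lie lowest and those of COL3A1 highest, and no gene has GOF points among those of the other side, which the choice of genes required.

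Genes of the neuronal synapse and of membrane excitability had many decreases. Of 47 presynaptic and synaptic vesicle genes, 24 were lower (51.1%) and 1 was higher, with a median log2 fold change of -0.30 against 0.0055 over all genes. The list is low in expression, with a median mean log2 CPM of 2.07 against 4.62 over all genes, and between 0 and 2 on that scale 18.4% of all genes were lower. Without the LOF line 14 were lower and without the A677G line 16. SYT14 (ENSG00000143469.21, chromosome 1, 209900923 to 210171389), an atypical synaptotagmin, had 5.09, 4.06 and 5.67 CPM in WT, 4.49, 5.12 and 4.16 CPM in LOF, 2.12, 1.58 and 1.75 CPM in Y641F and 2.09, 2.75 and 2.17 CPM in A677G (log2 fold change -1.21, SE 0.126, adjusted p = 2.90e-09). AMPH, which encodes amphiphysin and acts in endocytosis at the synapse, had 1.73 to 3.01 CPM in the GOF samples and 4.68 to 6.31 CPM in the others (log2 fold change -1.19, SE 0.1203, adjusted p = 1.42e-09). RIMS4, a small member of the active zone scaffold family, changed less but with a narrow spread, from 49.1 to 51.2 CPM to 36.03 to 41.9 CPM (log2 fold change -0.36, SE 0.0358, adjusted p = 1.09e-09). The other members called lower included RIMS1 (-1.47), a scaffold of the active zone, and the synaptotagmin genes SYT9 (-1.39), SYT13 (-1.25) and SYT2 (-1.07). UNC13B, a priming factor of vesicle release, was the 1 called higher (0.14).

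Of 62 genes for voltage-gated and potassium channels 21 were lower (33.9%) and 1 higher, with a median of -0.25. The median mean log2 CPM of this list was 1.199, and of all genes under 2 on that scale with a span of 100 to 300 kb 33.7% were lower. Whether either list differs from other genes of like level and span was not tested. Without the LOF line 13 were lower and without the A677G line 14. KCNK2, a potassium leak channel, had 3.84, 3.29 and 2.81 CPM in WT, 1.46, 1.71 and 1.83 CPM in LOF, 1.02, 0.735 and 0.851 CPM in Y641F and 0.606, 0.393 and 0.713 CPM in A677G (log2 fold change -1.73, SE 0.185, adjusted p = 4.71e-09). It also differed between LOF and WT (log2 difference -0.99, adjusted p = 0.0443, edgeR). KCNH2, the cardiac potassium channel hERG, had 1.89 to 2.69 CPM in the GOF samples and 3.02 to 5.17 CPM in the others (log2 fold change -0.85, SE 0.122, adjusted p = 1.68e-06). KCNK1 was at -0.73, the sodium channel genes SCN2A and SCN9A at -0.74 and -0.39, and the calcium channel gene CACNA1C at -1.12. KCNG3, a modifier subunit of potassium channels, was higher (0.24).

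Neurofilaments and other intermediate filaments had 4 lower of 14 (28.6%) and none higher, against 10.4% lower and 5.50% higher over all genes tested. On the 4 line means 2 were lower. NEFL (ENSG00000277586.4, chromosome 8, 24950955 to 24956721), the light neurofilament chain, had 137, 133 and 128 CPM in WT, 118, 109.8 and 119 CPM in LOF, 83.8, 75.6 and 77.5 CPM in Y641F and 74.7, 68.6 and 76.1 CPM in A677G (log2 fold change -0.70, SE 0.0327, adjusted p = 1.55e-18). NEFM, the medium chain, had 184, 192 and 178 CPM in WT, 139.6, 152 and 144 CPM in LOF, 143, 107 and 128 CPM in Y641F and 99.2, 81.2 and 92.6 CPM in A677G (log2 fold change -0.61, SE 0.0447, adjusted p = 4.99e-13). Its highest Y641F value lay between the lowest and the second LOF values, so the sides overlapped. NES and VIM were at -0.32 and -0.08. NEFL, NEFM and VIM were also on the list of HEK293T markers, of which 3 of 9 tested were lower and 2 higher.

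Among cell surface proteins that guide and join neurons, decreases outnumbered increases, as they did over all genes tested (10.4% lower and 5.50% higher). Of 16 teneurins, FLRT proteins, latrophilins and contactins 6 were lower (37.5%) and 1 higher (6.25%). CNTNAP2, a contactin-associated adhesion protein, had 44.5, 41.3 and 46.9 CPM in WT, 47.6, 44.2 and 45.9 in LOF, 29.3, 28.4 and 27.4 in Y641F and 27.4, 23.8 and 27.6 in A677G (log2 fold change -0.72, SE 0.0433, adjusted p = 2.43e-15). CNTN1, a contactin, had a log2 fold change of -0.74, and NCAM1, the neural cell adhesion molecule, of -0.48. Of 64 axon guidance genes 18 were lower (28.1%) and 6 higher (9.38%). The ephrin receptors moved in both directions, with EPHA8 at -0.63 and EPHB2 at -0.50, while EPHA7 rose from 93.4 to 98.8 CPM to 106 to 118 CPM (log2 fold change 0.23, SE 0.03, adjusted p = 2.09e-07). The secreted guidance proteins SLIT3 and SLIT1 were at -1.16 and -0.40, and SLIT2 at 0.20. Of 33 cadherins 10 were lower (30.3%) and 7 higher (21.2%), so both shares were above those of all genes. FAT3, a giant cadherin, had 45.8, 44.9 and 42.6 CPM in WT, 42.9, 44.2 and 40.7 in LOF, 27.8, 25.8 and 25.8 in Y641F and 34.4, 32.4 and 33.7 in A677G (log2 fold change -0.55, SE 0.0395, adjusted p = 3.60e-13), and it differed between the GOF lines (log2 difference -0.34, adjusted p = 0.00193, edgeR). CDH2, which encodes N-cadherin, was higher (0.18), as was CDH4 (0.80). The 3 clustered protocadherins tested were not called.

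The extracellular matrix was the other large group of decreases. Of 30 collagen chains 15 were lower (50%) and 1 was higher, with a median of -0.21. Without the A677G line 7 were lower and without the LOF line 10. Over all genes 10.4% were lower. The median mean log2 CPM of the collagens was 2.32. Between 2 and 4 on that scale 17.6% of all genes were lower, and 31.4% of those spanning 100 to 300 kb. Whether the matrix lists differ from other genes of like level and span was not tested. COL4A1 (ENSG00000187498.16, chromosome 13, 110148963 to 110307157), a chain of the basement membrane collagen type IV, had 39.3, 35.9 and 37.9 CPM in WT, 38.7, 39.7 and 39.8 CPM in LOF, 33.3, 26.5 and 28.02 CPM in Y641F and 28.3, 26.6 and 28.6 CPM in A677G (log2 fold change -0.43, SE 0.0463, adjusted p = 5.24e-09). Its 6 GOF samples were all below the other 6. COL4A2, whose gene lies head to head with COL4A1, had 61.7 to 73.6 CPM in the GOF samples and 80.6 to 83.9 CPM in the others (log2 fold change -0.30, SE 0.0348, adjusted p = 2.88e-08). COL4A3 and COL4A4, which also lie head to head, were at -1.02 and -1.31, and COL4A6 at -0.23. COL3A1 was the 1 collagen called higher. Of 31 laminins, fibulins and other basement membrane genes 15 were lower and 3 higher, with a median of -0.21. SVEP1, a large adhesion protein, was at -1.19 (SE 0.146), EFEMP1, which encodes fibulin 3, at -1.14 (SE 0.0968), and NID2, the linker protein nidogen 2, at -0.58 (SE 0.0481). LAMA3, AGRN and FBLN1 were higher, at 0.17, 0.19 and 0.19.

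The integrins, receptors for these matrix proteins, had 7 lower of 19 (36.8%) and none higher, and 4 lower without the A677G line. Their median mean log2 CPM was 2.99, and between 2 and 4 on that scale 17.6% of all genes were lower. ITGA4 (ENSG00000115232.14, chromosome 2, 181457202 to 181538940), the alpha 4 chain, had 19.9, 16.5 and 18.01 CPM in WT, 19.9, 18.9 and 19.6 CPM in LOF, 12.8, 10.7 and 11.5 CPM in Y641F and 9.51, 10.3 and 10.9 CPM in A677G (log2 fold change -0.78, SE 0.0623, adjusted p = 4.46e-12). ITGA6, a laminin receptor chain, was at -0.39 and ITGA2, a collagen receptor chain, at -0.35. Of 40 genes for heparan and chondroitin sulfate proteoglycans 13 were lower (32.5%) and 5 higher (12.5%). Both shares were above the 10.4% and 5.50% of all genes tested. The sulfotransferase HS6ST3 was at -0.70, the glypican GPC4 at -0.43 and the sulfatase SULF2 at -0.29, while the glypicans GPC3 and GPC6 were higher at 0.12 and 0.15.

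Signalling receptors and their ligands were lower in several pathways. Of 29 receptor tyrosine kinases 10 were lower (34.5%, against 10.4% of all genes) and 1 higher. Whether the lists of these pathways differ from other genes of like level and span was not tested. EGFR, the receptor for epidermal growth factor, had 4.15 to 5.68 CPM in the GOF samples and 7.35 to 8.82 CPM in the others (log2 fold change -0.76, SE 0.0879, adjusted p = 2.58e-08). FLT1 and KDR, receptors for vascular endothelial growth factor, were at -0.58 and -1.13, and ROR1, a receptor of the WNT pathway, at -0.49. ERBB2, the partner of EGFR, was the 1 higher (0.14). Of 41 genes of the WNT pathway 15 were lower and 1 higher. SFRP1, a secreted inhibitor, had 9.45 to 12.6 CPM in the GOF samples and 16.2 to 19.5 CPM in the others (log2 fold change -0.72, SE 0.0677, adjusted p = 3.41e-10). LGR5, a receptor for R-spondins, was at -0.76, FZD10, a frizzled receptor, at -0.73, and the inhibitor DKK1 at -0.93. LRP6, the coreceptor, was the 1 higher (0.13). Of 55 genes of the TGF-beta and BMP pathways 14 were lower and 8 higher, and without the LOF line 7 and 5. Antagonists and ligands were among the former, with CHRDL1 at -1.28, CHRD at -0.59, BMP3 at -1.49 and GDF6 at -0.80. The receptor ACVR1C was at -0.76, and the receptors ACVR1B and BMPR1A were higher, at 0.16 and 0.12. ID4, a target of BMP signals, had 132 to 152 CPM in the GOF samples and 121 to 128 CPM in the others (log2 fold change 0.18, SE 0.0279, adjusted p = 4.10e-06).

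Immune genes were a smaller group. Of 18 genes of MHC class I presentation 10 were lower (55.6%) and none higher, with a median of -0.19. Without the LOF line 6 were lower. Over all genes tested 10.4% were lower and 5.50% higher. HLA-B (ENSG00000234745.14, chromosome 6, 31353872 to 31367067), a classical class I heavy chain, had 68.6, 67.5 and 62.6 CPM in WT, 66.8, 63.4 and 69.1 CPM in LOF, 42.3, 40.6 and 39.8 CPM in Y641F and 45.97, 42.1 and 45.4 CPM in A677G (log2 fold change -0.64, SE 0.0361, adjusted p = 7.12e-16). All GOF values lay below all others, and the 4 lines fell into 2 narrow bands. TAP1 and TAP2, which form the peptide transporter, were at -0.49 (SE 0.0665) and -0.27 (SE 0.0348). HLA-C and HLA-E were at -0.24 and -0.15. The class I genes are close in sequence, so reads may have been split between them. Of 28 interferon-stimulated genes 7 were lower and 1 higher. OAS3, an oligoadenylate synthetase, had 0.561 to 1.33 CPM in the GOF samples and 2.11 to 2.75 CPM in the others (log2 fold change -1.63, SE 0.191, adjusted p = 3.51e-08), and the antiviral gene SAMD9 was at -1.50 (SE 0.204) and HERC5, a ligase for ISG15, at -0.33 (SE 0.0463). IFITM1 was higher (0.32). Of 10 complement receptors and regulators 4 were lower and none higher, with CR2 at -0.94, CLU at -0.28 and CD55 at -0.21.

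Developmental transcription factors, many of them classical polycomb targets, were called less often than the surface and matrix groups, a difference that was not tested. Of 36 HOX genes none was lower and 2 were higher, HOXA13 at 0.25 (SE 0.0453) and HOXA10 at 0.12 (SE 0.0367). Of 72 FOX, SOX, TBX, GATA and KLF factors 8 were lower and 6 higher, and without the LOF line 4 and 3. The 8 and 6 are 11.1% and 8.33% of the list, near the 10.4% and 5.50% of all genes tested. SOX21, a neural factor, had 9.57 to 12.9 CPM in the GOF samples and 15.8 to 17.7 CPM in the others (log2 fold change -0.63, SE 0.0667, adjusted p = 4.40e-09), and SOX5 was at -0.65. SOX4 rose from 220.0 to 239 CPM to 249.6 to 285 CPM (log2 fold change 0.22, SE 0.02801, adjusted p = 1.27e-07). Of 34 transcription factors of kidney development 5 were lower (14.7%) and 4 higher (11.8%), or 1 and 1 without the A677G line. Of the lower ones, ESRRG was at -0.51 and LMX1B at -0.27. Of 18 imprinted genes KCNQ1 was the 1 called (-1.30, SE 0.2896), with 0.0946 to 0.538 CPM in the GOF samples and 0.541 to 1.06 CPM in the others.

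**Figure D3:**
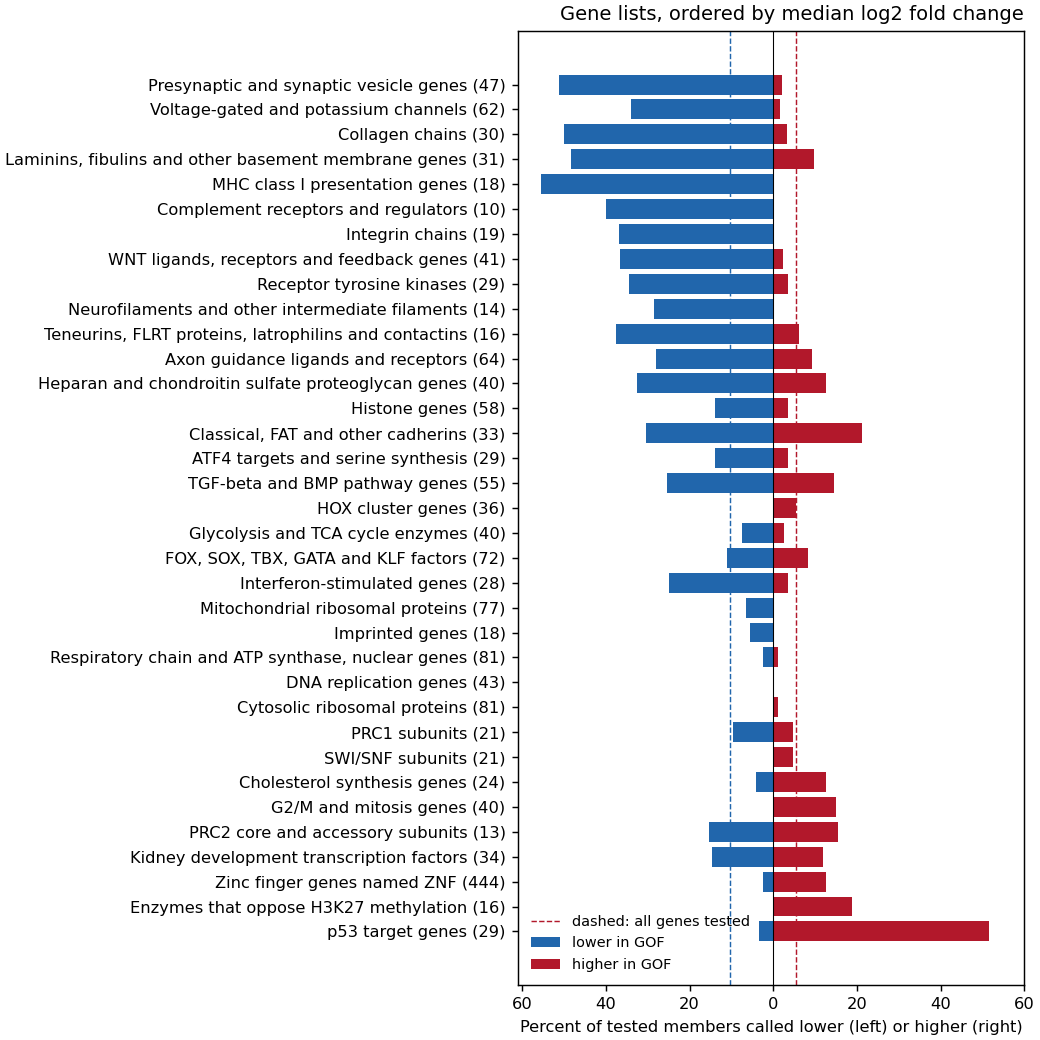
Bars give the percent of the tested members of each gene list, with their number in brackets, called lower (left) or higher (right) in the GOF lines, and dashed lines mark the 10.4% and 5.50% of all genes tested. Lists are ordered by median log2 fold change, from -0.30 for presynaptic genes to 0.14 for p53 targets.

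The largest list with more increases than decreases was that of the zinc finger genes named ZNF, most of which encode DNA-binding repressors with many fingers. Of 444 tested, 56 were higher (12.6%) and 11 lower (2.48%), with a median of 0.058. Over all genes tested 5.50% were higher and 10.4% lower. Whether the list differs from other genes of like level and span was not tested. On chromosome 19, 33 of 206 were higher (16.0%) and 2 lower, and on the other chromosomes 23 of 236 were higher (9.75%) and 9 lower. Other genes of chromosome 19 had 30 higher (4.01%) and 28 lower (3.74%) of 748. Between 20 and 25 Mb of chromosome 19, a stretch with a dense cluster of ZNF genes, 11 of the 17 tested were higher (64.7%). ZNF737 (ENSG00000237440.9, chromosome 19, 20535825 to 20565809) had 3.06, 2.77 and 2.72 CPM in WT, 3.08, 1.86 and 1.86 CPM in LOF, 3.97, 4.39 and 4.73 CPM in Y641F and 4.76, 4.74 and 4.44 CPM in A677G (log2 fold change 0.82, SE 0.123, adjusted p = 3.49e-06). ZNF681 (ENSG00000196172.9, chromosome 19, 23739195 to 23758891) had 7.07 to 8.85 CPM in the GOF samples and 4.19 to 5.46 CPM in the others (log2 fold change 0.69, SE 0.08895, adjusted p = 2.35e-07). ZNF91, a repressor of SVA retrotransposons, had 16.8, 14.96 and 15.2 CPM in WT, 12.4, 12.5 and 13.1 CPM in LOF, 17.6, 18.4 and 17.97 CPM in Y641F and 19.6, 20.6 and 19.4 CPM in A677G (log2 fold change 0.43, SE 0.0543, adjusted p = 1.73e-07), and its LOF samples lay below those of WT. ZNF365, whose product is a centrosomal protein, was lower (-1.76, SE 0.2004). Clustered ZNF genes are close copies of each other, so reads shared by them make single values uncertain. The count of higher ZNF genes also depended on the lines, with 16 without A677G, 22 without LOF and 42 without WT.

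Of 29 targets of p53, the tumour suppressor that large T antigen binds, 15 were higher (51.7%) and 1 was lower (3.45%), with a median of 0.14. Over all genes tested 5.50% were higher and 10.4% lower. The median mean log2 CPM of the list was 5.34, and between 4 and 6 on that scale 8.05% of all genes were higher. Whether the list differs from other genes of like level and span was not tested. DDB2, a damage recognition protein, had 13.3, 13.8 and 13.9 CPM in WT, 14.96, 14.6 and 16.4 CPM in LOF, 18, 16.4 and 18.9 CPM in Y641F and 19.6, 19.2 and 21.4 CPM in A677G (log2 fold change 0.39, SE 0.0562, adjusted p = 2.26e-06). RPS27L had 41.4 to 49.5 CPM in the GOF samples and 31.8 to 39.97 CPM in the others (log2 fold change 0.29, SE 0.0413, adjusted p = 1.26e-06). The cell cycle inhibitor CDKN1A was at 0.40, and BBC3 and BAX, which promote apoptosis, at 0.41 and 0.21. PLK2, a polo-like kinase, was the 1 lower (-0.65, SE 0.0878). Without the A677G line 8 targets were higher, and without Y641F 18.

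Lists of growth and housekeeping genes had shares called on either side of the 15.9% of all genes. Of 40 G2/M and mitosis genes 6 were higher (15.0%) and none lower, by at most 0.16 for CDC25B, a phosphatase that activates CDK1, and 3 were higher under upper-quartile scaling and 2 without the LOF line. Of 43 DNA replication genes none was called in either direction, and of 81 cytosolic ribosomal proteins 1 was, RPS27L. Of 81 nuclear genes of the respiratory chain 2 were lower and 1 higher, and of 77 mitochondrial ribosomal proteins 5 were lower and none higher, with 0 lower on the 4 line means. Of 58 histone genes 8 were lower and 2 higher, and 51 of the 58 had an estimate below 0. The histone count was not stable, with 21 lower under upper-quartile scaling and 0 without the A677G or the LOF line. Most histone transcripts lack a poly(A) tail, and the libraries were made from poly(A) RNA. Glycolysis and the TCA cycle had 3 lower and 1 higher of 40, with ENO2, the neuronal enolase, at -0.63 (SE 0.104), PFKP at -0.19 and IDH2 at 0.22. Cholesterol synthesis had 1 lower and 3 higher of 24, and none called without the A677G line. ATF4 targets with serine synthesis had 4 lower and 1 higher of 29, with the lower count from 1 without the LOF line to 8 without replicate 1 of Y641F and 9 under upper-quartile scaling. In that list DDIT4 had 75.5, 52.1 and 47.8 CPM in Y641F, so that replicate 1 stood above the other 2, and 61.9, 54.7 and 57.9 in A677G, against 48.4 to 51.7 in the other lines (log2 fold change 0.22, SE 0.0604, adjusted p = 0.0102).

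The called genes differed from the rest in read support and in gene span. CPM are not per length, so bins of mean log2 CPM order genes by the reads behind them. Between 0 and 2, 18.4% of 1975 genes were lower and 1.22% higher. At 6 and over, 3.79% of 3558 were lower and 7.62% higher. Gene span, from annotated start to end with introns, had a median of 65.2 kb in genes called lower, 66.9 kb in genes called higher and 29.3 kb in genes not called. Of genes spanning 300 kb and over, 31.0% were lower and 6.92% higher, against 7.42% and 2.35% under 10 kb. Within genes under 2 in mean log2 CPM, 80 of 181 with a span of 300 kb and over were lower, and 158 of 1666 under 30 kb. At 6 and over the long genes were higher more often, with 108 of 580 between 100 and 300 kb, against 47 of 1552 under 30 kb. The GC content of the transcript had a median of 47.8% in genes called lower, 43.5% in genes called higher and 48.2% in genes not called. The parts of span, level and GC content in the calls were not tested beyond the removal of the GC trend, which left 1578 lower and 783 higher.

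**Figure D4:**
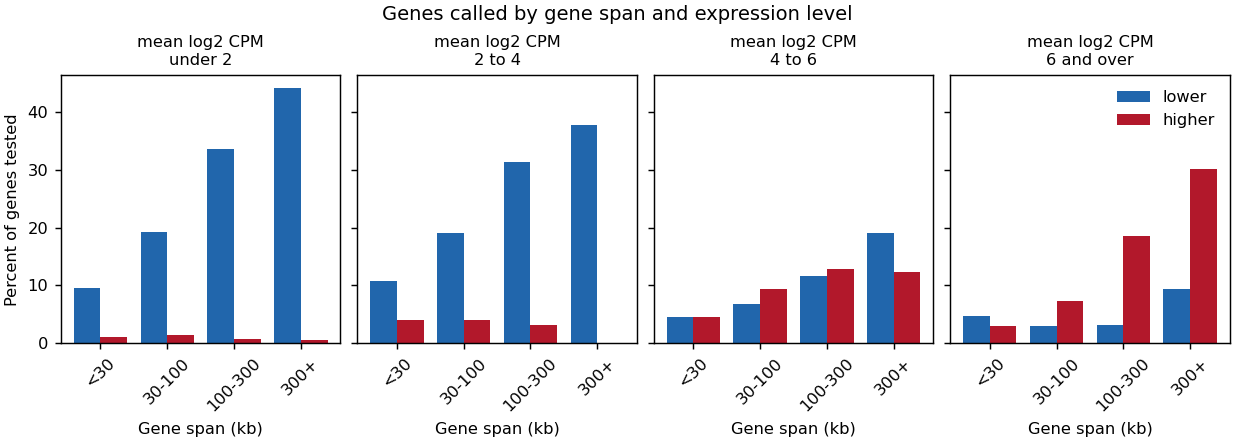
Each panel holds the genes of 1 range of mean log2 CPM, and bars give the percent called lower or higher in the GOF lines, by gene span in kb. The share called lower grows with span in the panels under 2, 2 to 4 and 4 to 6, up to 80 of 181 genes in the first. In the panel of 4 to 6 it runs from 4.58% under 30 kb to 19.1% at 300 kb and over. The share called higher grows with span at 6 and over, and it is 4.48% and 12.3% at these spans in the panel of 4 to 6.

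A few of the genes differed between the lines of 1 side. EMILIN2, a matrix glycoprotein, had 21.3, 25.7 and 23.8 CPM in WT, 21.9, 24.04 and 22.1 CPM in LOF, 39.96, 35.9 and 35.04 CPM in Y641F and 27.9, 22.8 and 24.3 CPM in A677G. It was called between the sides (log2 fold change 0.39, SE 0.0531, adjusted p = 5.38e-07), but the GOF lines differed by 0.56 (adjusted p = 2.95e-05, edgeR), and A677G overlapped the WT and LOF samples. NEFM differed both between Y641F and A677G (0.47, adjusted p = 4.75e-05, edgeR) and between LOF and WT (-0.35, adjusted p = 0.00304). FLRT2, an adhesion and guidance protein, had 7.77, 6.78 and 7.904 CPM in WT and 3.49, 4.61 and 4.34 CPM in LOF, and 4.11, 4.097 and 3.88 in Y641F and 5.52, 5.33 and 5.32 in A677G. Its LOF samples lay near those of Y641F (LOF minus WT -0.85, adjusted p = 8.22e-04, edgeR), so that its pooled value joins 2 unlike lines. SLC7A11, the cystine transporter, had 49.7, 51.1 and 54.8 CPM in WT, 64.1, 66.1 and 63.9 CPM in LOF, and GOF values of 55.7 to 59.1 CPM between them (LOF minus WT 0.32, adjusted p = 5.51e-04, edgeR), and it was not called between the sides (log2 fold change -0.02, SE 0.0335, adjusted p = 0.782).

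**Figure D5:**
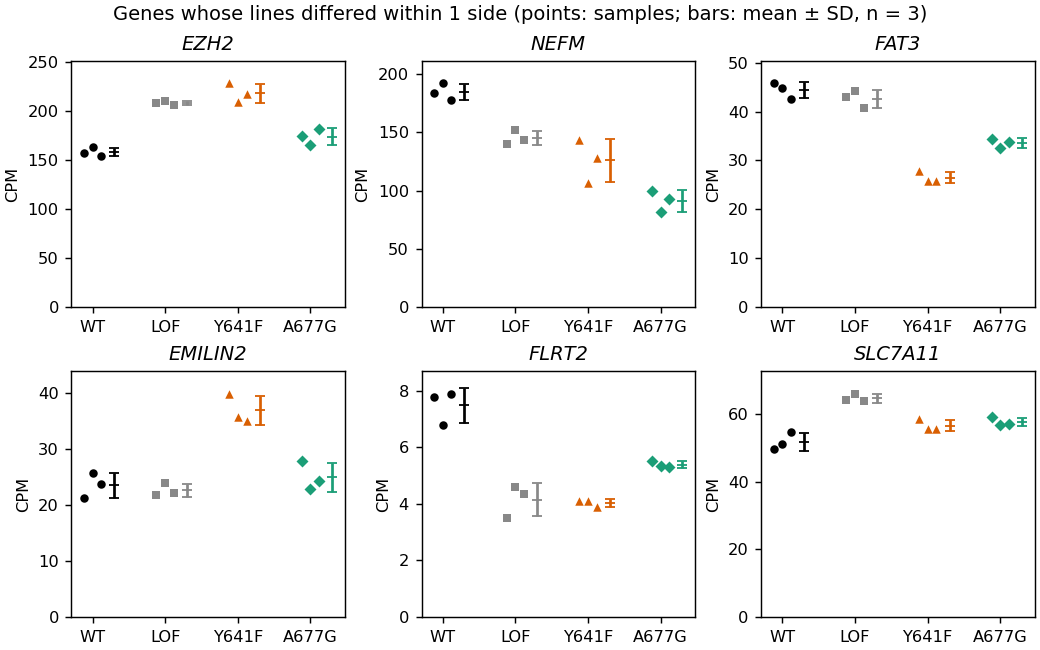
CPM of 6 genes that differed between the lines of 1 side are plotted for each of the 12 samples by line, with the mean and SD of the 3 replicates beside the points and a vertical axis that starts at 0. EZH2 is highest in Y641F and LOF, NEFM is lowest in A677G, and EMILIN2 is high in Y641F alone.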

How the data were processed

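RNA-Seq was done on 4 HEK293T lines with 3 replicates each. Per the labels and the methods of the study, stranded mRNA libraries were trimmed with Trim Galore 0.6.5, aligned with STAR 2.7.9a to GRCh38 and quantified with Salmon 1.2.0. The values deposited by the authors are whole-number counts, 1 row per gene symbol, with no normalization. The step from Salmon to these counts is not given in the sources used here.

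The test was edgeR's quasi-likelihood F test (edgeR 4.0.16, R 4.3.3) after TMM scaling, fitted to the 12 samples at once with 1 coefficient per line and Benjamini-Hochberg adjustment over all genes tested (threshold 0.05). The exact test of the study was run as an alternative. Genes at 0 in all 3 replicates of a line were left out, and no other filter was applied. CPM are TMM-normalised, and a difference is a log2 fold change of the GOF lines against WT plus LOF unless stated. Depth lay between 32137700 and 44562413 counts. DESeq2 1.42.0 and limma 3.58.1 served as alternatives.

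Named genes are EZH2, the 12 largest changes in each direction where the mean log2 CPM is 1 or more and the sides do not overlap, up to 3 called genes with the smallest p per gene list, and up to 3 per contrast within a side. Further list members are named as examples, chosen after their values were seen. The comparison, the gene lists and the markers were chosen with earlier results of these data known. Symbols were matched to GENCODE (13272 by name) and RefSeq synonyms (807), with 359 unmatched. Coordinates and spans are on GRCh38. Promoters of SPON1, PCDH10 and COL3A1 were not analysed here. The results of some genes under this rule are not reported here. The procedure was tested on simulated data.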

Additional observations from a re-analysis of the deposited data

Results flagged for a closer look

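In sets of 6 samples of 1 side, Dixon's test marked single samples that stood apart from the other 5. Replicate 1 of Y641F was marked on both principal components, with scores of 5.60 on the first and -19.2 on the second. Without it, 1629 genes were lower and 921 higher. The same library was marked for SPON1 at 10.7 CPM and for COL3A1 at 11.6 CPM. CCDC68 was marked in replicate 3 of Y641F at 3.12 CPM, and LINC00665 in replicate 2 of A677G at 5.80 CPM. Of 60 sets tested 6 had a sample marked. The nominal rate of about 1 in 20 holds for independent sets from 1 population. Here each set joined 2 lines, the sets shared libraries, and many genes were picked from the same data, so that rate is no measure of chance.

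Some genes named in the report differed between the lines of 1 side by the edgeR test of that difference. Between Y641F and A677G the log2 difference was 0.33 for EZH2, 0.56 for EMILIN2, 0.47 for NEFM and -0.34 for FAT3. Between LOF and WT it was 0.40 for EZH2, -0.85 for FLRT2, 0.32 for SLC7A11, -0.35 for NEFM, -0.21 for NEFL and -0.99 for KCNK2. The adjusted p was 0.0443 for KCNK2 and 0.028 for NEFL, and those of the others stand in the report. For EZH2, NEFM, EMILIN2, FAT3, NEFL and KCNK2 the pooled difference between the sides was called as well.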

How the results depend on the processing

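The counts of 1477 lower and 785 higher stayed within 1.5 times of these values under the scaling, test, filter and thinning alternatives, with the exceptions given here. Comparing the 4 line means left 472 higher. Requiring a 2-fold change left 186 lower and 2 higher. With a whole line left out, the higher genes numbered 505 without WT, 382 without A677G and 403 without LOF. Leaving out 1 replicate gave 1262 to 1629 lower and 588 to 921 higher. Among genes with no difference between the lines of 1 side at an unadjusted p under 0.05, a setting chosen after seeing the data, 1232 were lower and 650 higher of 13016. Genes below all other samples numbered 1251 without WT, 1391 without Y641F and 1174 without LOF. Genes above all other samples numbered 736 without WT, 767 without Y641F, 554 without A677G and 699 without LOF. With fewer samples per side, separation is easier to reach.

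DESeq2 called 19 genes between Y641F and A677G. With 1 replicate left out, that count was 8 to 57, the highest without replicate 2 of Y641F and 21 without its replicate 3. Between LOF and WT it was 11 to 65, with 12, 17 and 25 without replicates 1, 2 and 3 of WT, 11 and 19 without replicates 1 and 2 of LOF and 65 without replicate 1 of Y641F, and for any difference within a side 23 to 108. The log2 fold change of EZH2 was 0.0957 by the exact test (adjusted p = 0.414) and by the quasi-likelihood test on the sides (0.412), 0.0990 on the line means (0.436) and with line as a block in limma (0.384), and 0.0997 against the 2-fold requirement. With 1 replicate left out it was 0.0828 to 0.1178, and 0.0829 without replicate 3 of A677G did not pass (adjusted p = 0.0554). It reversed to -0.0982 without the WT line and -0.0687 without the Y641F line. SLC7A11 reversed to 0.1416 without the LOF line.

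For the other named genes, 3560 of 3814 values kept their side of the threshold, 246 lost the call and 7 gained it. The 3560 include any value that changed sign without a call in either fit, so direction was not kept in all of them. Of 36 gene lists, the median of 10 changed sign under some setting, and 4 of them under another scaling (cytosolic ribosomal proteins, DNA replication, the respiratory chain and PRC1 subunits). Replicate numbers did not pair the samples: 18 same-number pairs had correlations from -0.0557 to 0.0501. With the replicate block, 1485 genes were lower and 780 higher, and with GC correction and block 1592 and 796. The precision is set by 3 replicates per line and 2 lines per side. Depth limits genes of few counts, and a gene listed at 0 was not tested.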

Other observations

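On chromosome X, 88 of 500 genes (17.6%) were lower in the GOF lines and 15 (3.00%) higher. Among the autosomes the share of genes called lower ran from 3.14% on chromosome 19, 3.80% on chromosome 16 and 4.79% on chromosome 17 to 14.8% on chromosome 5. Within genes spanning at least 100 kb, 30 of 124 on X were lower and 544 of 2764 on the autosomes. Under 100 kb, 58 of 376 on X and 838 of 10654 on the autosomes were lower. Differences between chromosomes were not tested, and genes of 1 chromosome are not independent replicates.

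When the 175 genes listed at 0 in a line were kept, 1566 genes were lower and 838 higher, and all 2262 genes called without them kept their call.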
